A study of Homo sapiens with 8 samples.

Results

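The mRNA of MYC and of 7 genes whose proteins share its dimerization network was read in Huh7 cells after UPF1 was depleted or overexpressed. The genes were read by their symbols and are MYC, MAX, MXI1, MXD4, MNT, MGA, MLX and MLXIPL, which are 8 of the 17076 genes with values. They were chosen with earlier results of these data known. Huh7 is an established human hepatocellular carcinoma line, and UPF1 is an RNA helicase needed for nonsense-mediated mRNA decay. RNA-seq was performed on 4 groups of 2 libraries. Cells given UPF1 siRNA (siUPF1) were set against cells given a scrambled siRNA (siControl), and cells given a MYC-UPF1 overexpression vector (MYC-UPF1) were set against cells given the control MYC vector (MYC). In the last pair of names MYC is an epitope tag on the vector, so below "MYC vector" is the group and MYC alone is the endogenous gene. Whether reads from the tag were counted for the MYC gene was not tested. All 4 groups are of the same line, and the labels do not say whether replicates came from separate cultures, so p-values measure only the spread between these libraries.

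MYC is a transcription factor that binds DNA as a dimer with MAX at the E-box sequence CACGTG and raises the expression of growth genes. MAX also dimerizes with the MXD proteins (MXI1 and MXD4 among them), MNT and MGA, which compete for the same sites and recruit repressors. MLX joins MXD4 or MNT on one side and, on the other, the glucose-sensing factors MLXIPL (ChREBP) and MLXIP, which drive sugar and lipid metabolism in liver.

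The values were FPKM, the fragments counted for a gene scaled to its exon length and to the mapped fragments of the library, so levels could be compared between genes. Summed FPKM lay between 403902 and 455592 in the 8 libraries. The number of reads behind each value is unknown. UPF1 itself was at 44.5 and 47.4 FPKM in siControl and 20.7 and 21.9 in siUPF1, a log2 fold change of -1.07 (adjusted p = 0.0308, limma). It was at 45.1 and 57.4 FPKM with the MYC vector and 2835 and 2484 with MYC-UPF1, a log2 fold change of 5.68 (adjusted p = 8.91e-09, limma). All 13 hepatocyte markers were present, with summed FPKM from 22940 to 26568, while 7 of 13 markers of other cells were listed and summed to between 37.1 and 42.8 FPKM. Differences were tested in limma on log2(FPKM + 1), a scale that understates the change of low genes, and "rose" or "fell" below means an unadjusted p under 0.05, the threshold stated for the study, while the p-values printed are adjusted over all genes tested. A single gene could not reach 0.05 in an exact permutation test of these group sizes, whose smallest two-sided p is 0.333.

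All 8 genes were expressed in every library. In siControl the highest level was that of MLX, at 32.1 ± 2.61 FPKM (SD, n = 2). MYC followed at 17.2 ± 0.692 and its obligate partner MAX at 9.48 ± 0.468. MXD4 was at 7.68 ± 0.0371, MGA at 6.27 ± 0.00802 and MLXIPL at 5.18 ± 0.325. MXI1 (3.34 ± 0.295) and MNT (3.33 ± 0.0227) were lowest and overlapped, whereas every other pair of neighbours in this order was separated in both libraries. In siUPF1 the order was MLX, MYC, MXD4, MAX, MGA, MLXIPL, MNT and MXI1, with no overlap between neighbours. MXD4 had thus moved above MAX, and MNT above MXI1. With the MYC vector MXD4 also stood above MAX (13.5 ± 0.258 against 7.92 ± 0.208 FPKM), and MAX overlapped with MGA, as did MLXIPL with MNT.

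**Figure D1:**
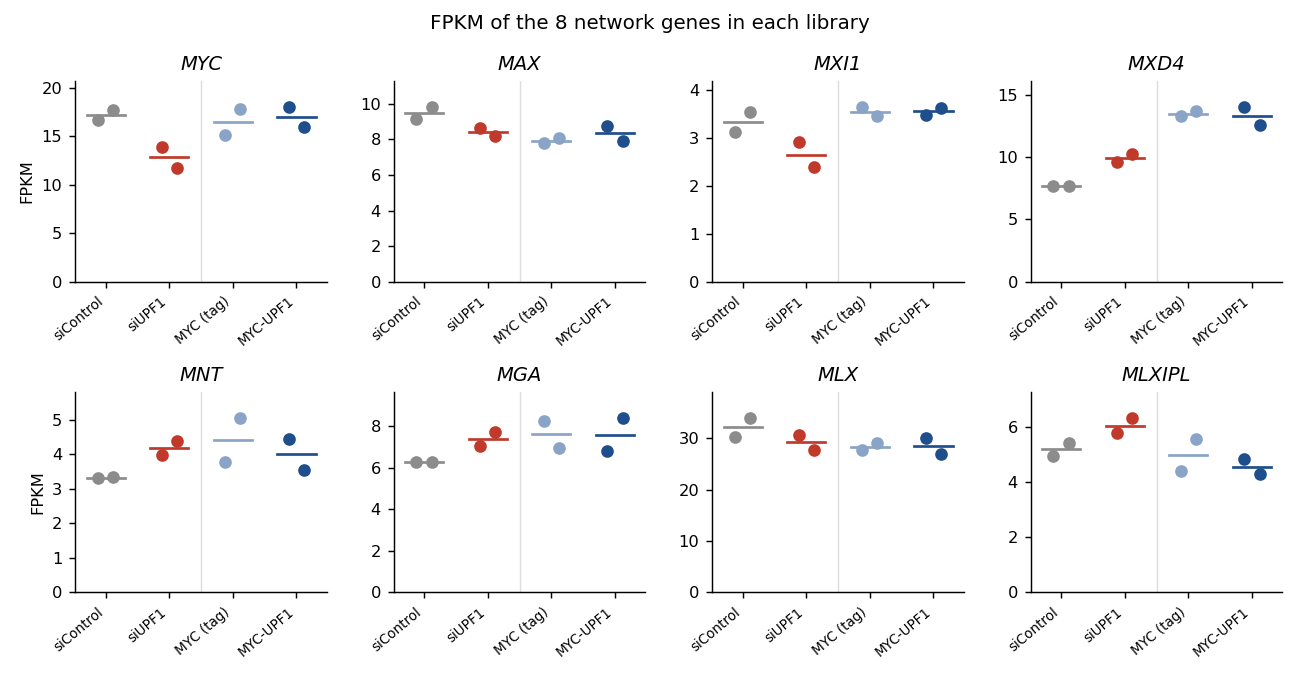
FPKM of the 8 genes in each of the 8 libraries, with points for libraries and lines for group means; each panel has its own axis from 0 and a grey line parts the siRNA from the vector experiment. Both siUPF1 libraries lie below the controls for MYC, MAX and MXI1 and above them for MXD4, MNT, MGA and MLXIPL, while each gene overlaps between the MYC vector and MYC-UPF1.

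The 7 genes other than MYC have a promoter window in RefSeq (GRCh38.p14, 250 bases before to 50 after a gene start), and the windows of 3 hold the network's own binding letters. They are shown because MXD4 and MNT carry the rises described below and MLX the highest level. The E-box, which reads CACGTG on both strands, is in capitals in the strand of the gene.
MXD4: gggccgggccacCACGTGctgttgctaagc
MNT: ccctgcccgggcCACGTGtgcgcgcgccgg
MLX: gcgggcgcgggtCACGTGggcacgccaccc
The MXD4 stretch lies at chr4:2262330-2262359 on the minus strand, with the E-box beginning 238 bases before the gene start. That of MNT lies at chr17:2401236-2401265 on the minus strand, 193 bases before the start, and that of MLX at chr17:42567038-42567067 on the plus strand, 50 bases before it. The windows of MAX, MXI1, MGA and MLXIPL hold no CACGTG. Across all genes with a window, 2396 of 27305 (8.8%) hold it, and 24 of 41 (58.5%) in a list of genes known to be activated by MYC do. Such a match describes letters and not a bound site.

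Depletion of UPF1 was compared first. Of the 8 genes, MXD4 and MNT rose and MYC fell, and 0 passed after Benjamini-Hochberg adjustment. Over all 13535 genes tested, 21.5% passed the unadjusted threshold, with 16% higher and 5.51% lower, and 0.0369% passed after adjustment. Of the genes called, 74.3% were higher, against 55.8% with median centring and 50.2% with quantile normalization. Under either of these scalings 1 member rose (MXD4) and 3 fell (MYC, MAX and MXI1), and MNT was not called. Without siUPF1 replicate 1, 4 members rose (MXD4, MNT, MGA and MLXIPL) and 2 fell (MYC and MXI1), beside 43.6% of all genes called, and without siControl replicate 2 the count was 0, beside 12.6%. The depleted libraries both lay above both controls for 4 members and both below for 3, so that 7 of 8 did not overlap. Of all genes tested 37.5% lay above and 18.5% below, 56% together.

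MYC (chromosome 8, 128747680 to 128755197, plus strand, GRCh37) was at 16.7 and 17.7 FPKM in siControl and at 13.9 and 11.7 in siUPF1. Both depleted libraries were below both controls, and the second was the lower. The mean fell by 25.4%, and the log2 fold change was -0.40 (standard error 0.109, 95% confidence interval -0.66 to -0.14, adjusted p = 0.129, limma). It was -0.29 without siUPF1 replicate 2 and -0.51 without siUPF1 replicate 1. Without siControl replicate 2 it was -0.36 and no longer past the threshold. In a bulk library a lower level in each cell cannot be told apart from a loss in some of the cells.

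MAX, the common partner (chromosome 14, 65472892 to 65569413, minus strand), was at 9.15 and 9.81 FPKM in siControl and at 8.65 and 8.21 in siUPF1. The groups did not overlap, but the log2 fold change of -0.15 (95% confidence interval -0.37 to 0.069) did not pass (adjusted p = 0.371, limma). It was -0.20 with quantile normalization and -0.19 with median centring, and passed the unadjusted threshold under both. FNTB overlaps MAX on the opposite strand, and the strand setting of the counting is not given in the sources used here.

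Among the competitors of MYC, MXD4 (chromosome 4, 2249159 to 2263836, minus strand) was at 7.65 and 7.71 FPKM in siControl and at 9.57 and 10.3 in siUPF1. Both depleted libraries were higher by far more than the controls differed from each other. The mean was 29.1% higher, with a log2 fold change of 0.33 (95% confidence interval 0.11 to 0.55, standard error 0.0915, adjusted p = 0.132, limma). Without siControl replicate 1, or without siControl replicate 2, it was again 0.33 but did not pass. The gene contains MIR4800 on its own strand.

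MNT (chromosome 17, 2287367 to 2304398, minus strand), a repressor present in most cell types, was at 3.31 and 3.34 FPKM in siControl and at 3.97 and 4.37 in siUPF1. The groups did not overlap. The mean was 25.4% higher, and on the log2 scale MNT rose by 0.26 (standard error 0.095, adjusted p = 0.196, limma). This call held under 5 of 14 other settings and was lost without siControl replicate 1 (0.25), siControl replicate 2 (0.26) or siUPF1 replicate 2 (0.20).

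MGA, a large scaffold of a repressive complex (chromosome 15, 41913332 to 42065279, plus strand), was at 6.27 and 6.26 FPKM in siControl and 7.04 and 7.70 in siUPF1. Both depleted libraries were higher, with a log2 fold change of 0.20 (95% confidence interval -0.019 to 0.42) that did not pass (adjusted p = 0.261, limma). MXI1 (chromosome 10, 111967363 to 112047123, plus strand), an MXD protein like MXD4, was at 3.13 and 3.55 FPKM in siControl and at 2.92 and 2.39 in siUPF1. Here both depleted libraries were lower, with a log2 fold change of -0.25 (95% confidence interval -0.52 to 0.018, adjusted p = 0.256, limma) that did not pass. The competitors of MYC thus lay on both sides of their controls. With quantile normalization MXI1 fell (log2 fold change -0.32), and it did so under 5 of 14 other settings in all.

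In the MLX branch, MLX (chromosome 17, 40719090 to 40725257, plus strand) was at 30.3 and 34.0 FPKM in siControl and at 30.7 and 27.8 in siUPF1. It was the only one of the 8 genes whose groups overlapped, with a log2 fold change of -0.13 (95% confidence interval -0.38 to 0.12). PSMC3IP overlaps it on the opposite strand. MLXIPL (chromosome 7, 73007524 to 73038873, minus strand) was at 4.95 and 5.41 FPKM in siControl and at 5.76 and 6.31 in siUPF1. Both depleted libraries were higher, and the log2 fold change of 0.19 (95% confidence interval -0.046 to 0.42) did not pass (adjusted p = 0.310, limma).

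**Figure D2:**
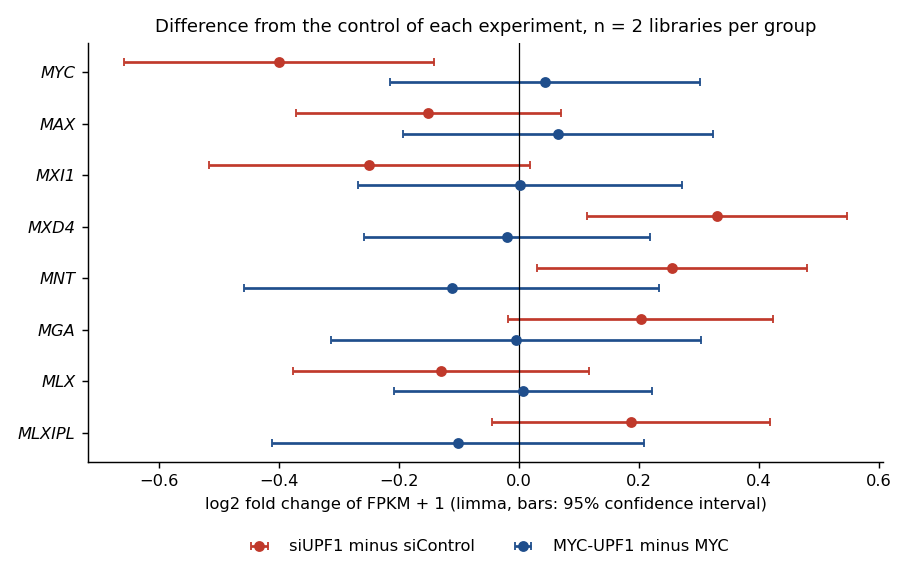
Log2 fold change of FPKM + 1 for the 8 genes against the control of each experiment, with 95% confidence intervals from limma. After depletion (red) the intervals of MYC, MXD4 and MNT exclude 0, and after overexpression (blue) every interval includes it.

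Fold changes after depletion ran with the base composition of the transcripts (Spearman correlation of log2 fold change with GC content 0.553 across 12833 genes, which are not independent replicates). Those after overexpression ran against it (-0.44 across 12590 genes). The signs are opposite, so both trends enter the difference of the effects, given below, in the same direction. MXD4, MLXIPL and MNT have transcripts of 63.5%, 63.3% and 61.3% GC, near the top of all annotated genes (percentiles 93.5, 93.2 and 88.5). MYC is at 48.8%, close to the median of 48.3%. MAX and MLX are at 49.4% and 49.9%, and MXI1 and MGA at 43.7% and 43.2%.

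The GC and length trend was then taken out of each library. The log2 fold change of MYC was again -0.40 and passed the unadjusted threshold (adjusted p = 0.0516, limma). That of MXD4 went from 0.33 to 0.12 (adjusted p = 0.385, limma) and that of MNT from 0.26 to 0.07 (adjusted p = 0.621, limma), so that neither call remained. MLXIPL went from 0.19 to -0.016. MGA went from 0.20 to 0.23 and passed the unadjusted threshold (adjusted p = 0.135, limma), which left MYC and MGA as the 2 of 8 genes called, beside 23.3% of all genes under this setting. The 3 genes of high GC content were the ones that moved furthest, and the part of base composition in their rises was not tested further.

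**Figure D3:**
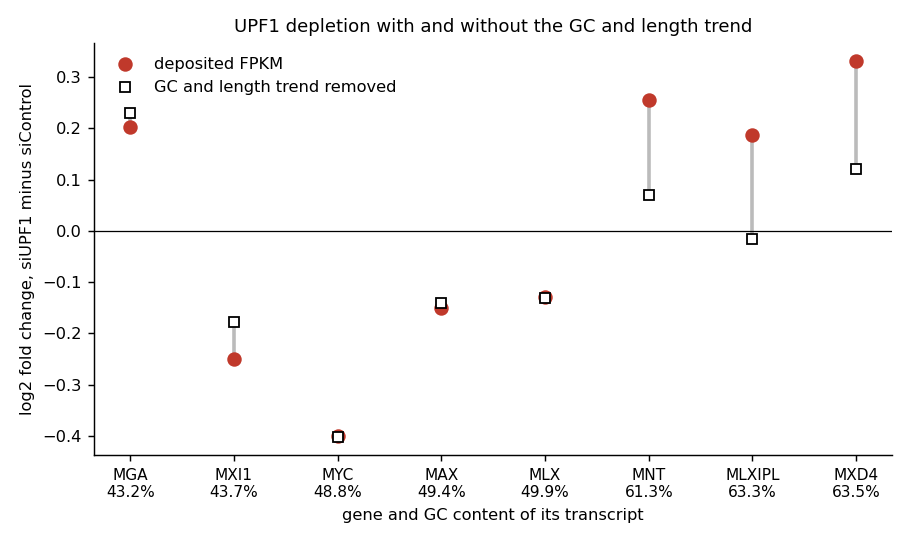
Log2 fold change after UPF1 depletion for the 8 genes in order of transcript GC content, from the deposited FPKM (red) and after removal of the GC and length trend of each library (open squares). The MYC, MAX and MLX values stay in place, whereas MNT, MLXIPL and MXD4, all above 61% GC, move towards or past 0.

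Overexpression of UPF1 was compared with the MYC vector in the same way. Of the 8 genes, 0 passed the unadjusted limma threshold and 0 the adjusted one, and 0 were separated between the groups. Over all 13251 genes tested, 1.43% passed the unadjusted threshold (0.619% higher and 0.807% lower) and 0.00755% passed after adjustment. The groups did not overlap for 20.7% of them, with 8.88% above and 11.8% below. The libraries of these groups were close to one another, and MYC vector replicate 1 correlated more with MYC-UPF1 replicate 2 (0.9977) than with the other MYC vector library (0.9961).

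MYC was at 15.2 and 17.8 FPKM with the MYC vector and at 18.0 and 16.0 with MYC-UPF1. Each group held a high and a low library, and the log2 fold change was 0.044 (95% confidence interval -0.21 to 0.30). MAX was at 7.78 and 8.07 FPKM against 8.76 and 7.92, a log2 fold change of 0.064 (-0.19 to 0.32).

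MXD4 was at 13.3 and 13.7 FPKM with the MYC vector and 14.0 and 12.6 with MYC-UPF1, a log2 fold change of -0.020 (95% confidence interval -0.26 to 0.22). MNT, at 3.79 and 5.05 FPKM against 4.45 and 3.55, had the widest interval, from -0.46 to 0.23 around a log2 fold change of -0.11. MGA was at 8.23 and 6.96 FPKM against 6.78 and 8.39, with a log2 fold change of -0.0047 (-0.31 to 0.30). In each of these genes the libraries of the groups interleaved.

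MXI1 was at 3.65 and 3.46 FPKM against 3.47 and 3.64, a log2 fold change of 0.0016 (95% confidence interval -0.27 to 0.27). MLX was at 27.7 and 29.0 FPKM against 30.0 and 27.0, a log2 fold change of 0.0063 (-0.21 to 0.22). MLXIPL was at 4.40 and 5.56 FPKM against 4.81 and 4.30, a log2 fold change of -0.10 (-0.41 to 0.21). The intervals of MNT and MLXIPL reach a fall of the size measured for MYC after depletion, and those of the other 6 genes do not.

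The effects of the 2 experiments were compared directly in a fit over all 8 libraries. MYC differed by -0.44 on the log2 scale (depletion minus overexpression, 95% confidence interval -0.81 to -0.076, adjusted p = 0.259, limma). MXD4 differed by 0.35 (interval 0.051 to 0.65, adjusted p = 0.268, limma). Both passed the unadjusted threshold. The other 6 genes did not, with differences from -0.25 for MXI1 to 0.37 for MNT. Of the 13412 genes in this fit, 15.2% were past the unadjusted threshold (11.8% higher, 3.4% lower) and 0.0224% past the adjusted one. Of those called, 77.7% were higher, against 58.8% with median centring and 53% with quantile normalization. With the GC and length trend removed the difference was again -0.44 for MYC (adjusted p = 0.138, limma) and 0.071 for MXD4 (adjusted p = 0.778, limma). The MYC difference did not pass without siUPF1 replicate 2 (-0.33), without siControl replicate 2 (-0.40), or without replicate 1 of the MYC vector (-0.34) or of MYC-UPF1 (-0.36). That of MXD4 passed under 7 of 17 other settings.

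Ratios within a library set MYC against its partners on the FPKM scale. MYC over MXD4 was 2.18 and 2.30 in siControl and 1.46 and 1.14 in siUPF1. With the MYC vector it was 1.14 and 1.301, and with MYC-UPF1 1.29 and 1.27. The ratio was above 2 in both siControl libraries and at most 1.46 in the other 6.

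MYC over MAX was 1.83 and 1.80 in siControl, 1.61 and 1.43 in siUPF1, 1.95 and 2.20 with the MYC vector and 2.06 and 2.02 with MYC-UPF1. MYC over the sum of MXI1, MXD4 and MNT was 1.19 and 1.21 in siControl and 0.846 and 0.689 in siUPF1, so the sum passed MYC in both depleted libraries. It was also below 1 in the vector libraries, at 0.731 and 0.802 with the MYC vector and 0.822 and 0.807 with MYC-UPF1. Of the summed FPKM of the 8 genes, MYC held 20.5% and 20.2% in siControl and 16.9% and 14.9% in siUPF1. MLXIPL over MLX was 0.164 and 0.159 in siControl and 0.188 and 0.227 in siUPF1. These ratios rest on the FPKM values above and were not tested again, nor taken with the GC and length trend removed. Under that setting the changes of MXD4 (0.12) and MNT (0.07) after depletion did not pass.

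**Figure D4:**
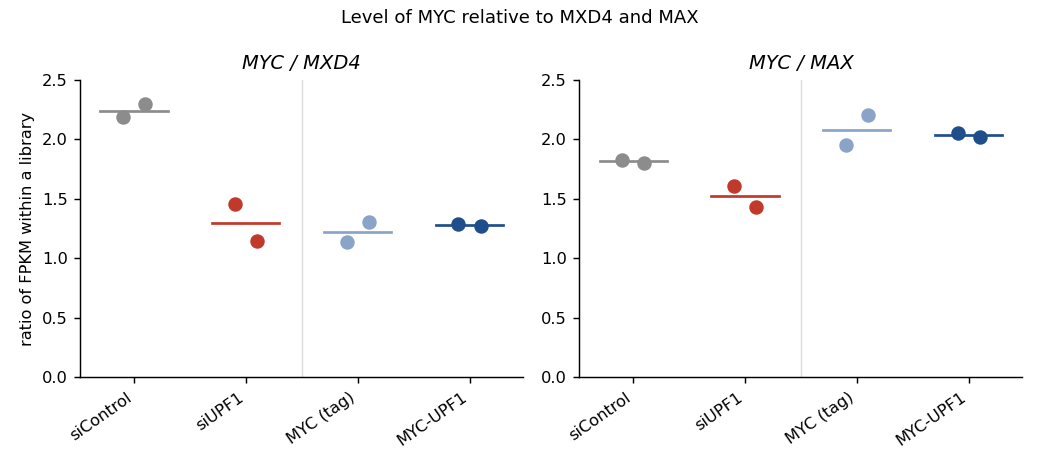
Ratio of MYC to MXD4 (left) and to MAX (right) on the FPKM scale in each library, with points for libraries and lines for group means. MYC over MXD4 is above 2 in siControl and between 1.14 and 1.46 in the other 6 libraries, while MYC over MAX is lowest in siUPF1, at 1.61 and 1.43.

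The siRNA and vector experiments were deposited as separate tables and their controls were not tested against each other. Side by side, MXD4 was at 7.65 and 7.71 FPKM in siControl and at 13.3 and 13.7 with the MYC vector, and MYC was at 16.7 and 17.7 against 15.2 and 17.8.

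Other proteins of the network were read from a list of 6 symbols, of which 5 were in the tables and 4 were tested, and 0 passed in either comparison (limma, unadjusted p). MYCN, a paralog of MYC that was singled out after its values were seen, was at 24.9 and 26.8 FPKM in siControl and at 25.7 and 25.6 in siUPF1. Its level was above that of MYC in each of the 8 libraries, and reached 34.0 and 38.5 FPKM with the MYC vector and 37.0 and 35.9 with MYC-UPF1. Its log2 fold change was -0.010 after depletion, against -0.40 for MYC.

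MXD1, an MXD protein, was at 4.17 ± 0.0968 FPKM in siControl and 3.53 ± 0.0375 in siUPF1 (SD, n = 2), with a log2 fold change of -0.19 (adjusted p = 0.271, limma). It passed the unadjusted threshold with quantile normalization (-0.26) and median centring (-0.23). MXD3, another, was at 13.7 ± 0.843 against 16.9 ± 3.44 FPKM, with a log2 fold change of 0.27 (adjusted p = 0.300, limma). Without siUPF1 replicate 1 it was 0.47 and passed, without siUPF1 replicate 2 it was 0.077, and with the GC and length trend removed it was 0.077. MLXIP, which pairs with MLX as MLXIPL does, was at 4.48 ± 0.227 against 5.11 ± 0.750 FPKM, with a log2 fold change of 0.15 (adjusted p = 0.457, limma), and it passed without siUPF1 replicate 1 (0.28). The level of MYCL, the remaining paralog, was at most 0.533 FPKM. Near the MYC gene, the noncoding RNA PVT1 was at 1.05 and 1.28 FPKM in siControl and 0.878 and 1.09 in siUPF1, which overlapped. In a list of noncoding RNAs that lie near or are named for MYC genes, 3 were tested after depletion (PVT1, CCAT1 and MINCR) and 0 passed.

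Lists of genes around the network were then counted. Of the 15 genes called after depletion and named in these lists, 15 did not pass without siControl replicate 2, 12 without siControl replicate 1, 7 without siUPF1 replicate 2 and 0 without siUPF1 replicate 1. After depletion, 0 of 50 genes known to be activated by MYC rose and 5 fell, beside 16% and 5.51% of all genes. Their median log2 fold change was -0.034, against 0.0565 over all genes, and 20 of the 50 lay below both controls in both depleted libraries while 7 lay above, beside 18.5% and 37.5% of all genes. The difference of the medians, -0.09, ranged from -0.16 to -0.023 with a library left out. The falls were those of TFRC, EIF4E, HSPE1, DDX21 and NPM1. TFRC, the transferrin receptor, was at 106 and 117 FPKM in siControl and at 84.8 and 78.6 in siUPF1, with a log2 fold change of -0.44 (adjusted p = 0.0937, limma). EIF4E, the cap-binding translation factor, was at 5.19 and 5.63 against 4.55 and 3.54 FPKM, a log2 fold change of -0.35 (adjusted p = 0.176, limma).

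HSPE1, a mitochondrial chaperonin, was at 468 and 442 against 411 and 334 FPKM, with a log2 fold change of -0.30 (adjusted p = 0.228, limma). With the GC and length trend removed TFRC was at -0.34 and passed (adjusted p = 0.0577, limma), while EIF4E (-0.13) and HSPE1 (-0.12) no longer did. Genes of the list that had not passed before now did: SRM (-0.27), MYBBP1A (-0.27), BOP1 (-0.24), CDC25A (-0.21), NOP2 (-0.19) and HK2 (-0.17). Every gene of the list that passed under this setting was lower. Of all 12833 genes tested under it, 2991 passed, 2262 of them higher and 729 lower. The EIF4E and HSPE1 transcripts have 34.5% and 39.3% GC. DDX21, a nucleolar helicase, was at 56.5 and 58.6 against 50.8 and 44.6 FPKM, and NPM1, a nucleolar chaperone, at 872 and 938 against 795 and 741, with log2 fold changes of -0.27 and -0.24. With the trend removed they were at -0.15 and -0.095 and did not pass. DDX21 and NPM1 were named after their values were seen. Without siUPF1 replicate 2 HSPE1 was at -0.14, EIF4E at -0.21 and DDX21 at -0.18, and none of these 3 passed. Without siUPF1 replicate 1 HSPE1 was at -0.45. Nucleolin (NCL), ODC1 of polyamine synthesis and CAD of pyrimidine synthesis did not pass, with log2 fold changes of 0.014, -0.15 and 0.049, and the sign of NCL and of CAD turned under other settings. After overexpression 0 of the 50 passed in either direction, with a median of -0.040 against -0.014 over all genes. ODC1 was at -0.12 there. With the GC and length trend removed ODC1 (-0.13) and SLC19A1 (-0.15) passed as falls after overexpression, beside 2.85% of all genes called in either direction.

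Of 10 genes known to be repressed by MYC, 1 rose and 1 fell after depletion, beside 16% and 5.51% of all genes. The median log2 fold change was -0.046, against 0.0565 over all genes. The difference of the medians was -0.10, beside -0.09 for the MYC-activated genes, so both lists lay below all genes. NDRG2, a differentiation-linked gene, was at 7.23 and 7.15 FPKM in siControl and at 9.75 and 9.13 in siUPF1, a log2 fold change of 0.35 (adjusted p = 0.119, limma). THBS1, a secreted matrix protein, was at 13.2 and 14.9 against 11.01 and 11.9 FPKM, and its log2 fold change was -0.27. CDKN1A, the cell cycle inhibitor p21, was at 2.29 and 2.43 against 2.06 and 2.56 FPKM, which overlapped. After overexpression the only call in the 5 lists on the deposited FPKM was GADD45A, a stress-induced gene. It was at 8.59 and 9.37 FPKM with the MYC vector and 12.8 in each MYC-UPF1 library. Its log2 fold change was 0.47 (adjusted p = 0.999987, limma), and it passed the unadjusted threshold under all 15 other settings.

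Of 18 genes for cofactors of MYC and of the MXD proteins, 1 rose and 1 fell after depletion. The shares of all genes were 16% and 5.51%. The median log2 fold change was 0.072, against 0.0565 over all genes. TRRAP, a scaffold of histone acetyltransferase complexes that MYC recruits, was at 12.9 and 12.4 against 14.8 and 15.3 FPKM (log2 fold change 0.24, adjusted p = 0.203, limma) and did not pass with the GC and length trend removed (0.13). SAP30, of the SIN3 and histone deacetylase complex through which MXD proteins repress, was at 6.93 and 7.27 against 6.18 and 5.28 FPKM (log2 fold change -0.27, adjusted p = 0.208, limma). SAP30 did not pass without siUPF1 replicate 2 (-0.17), without either siControl library (-0.30 and -0.24), with no minimum or with the replicate block. With the GC and length trend removed SAP30 passed (-0.27). KAT2A (-0.24) and CDC73 (0.19), which had not passed before, also passed under that setting. After overexpression 0 of the 18 passed.

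Of 28 regulators of MYC protein turnover and of MYC mRNA, 1 rose and 2 fell after depletion. The shares of all genes were 16% and 5.51%. The median log2 fold change was 0.0032, against 0.0565 over all genes. TOB1, an antiproliferative factor that binds the deadenylation machinery, was at 24.1 and 25.0 against 20.3 and 18.5 FPKM (log2 fold change -0.33, adjusted p = 0.141, limma). PABPC1, the cytoplasmic poly(A)-binding protein, was at 282 and 307 against 259 and 235 FPKM (log2 fold change -0.25, adjusted p = 0.217, limma). With the trend removed TOB1 was at -0.22 and PABPC1 at -0.21, and both passed. Under that setting IGF2BP3 (0.31), GSK3B (0.23), USP37 (0.22) and CNBP (0.19), which had not passed before, passed as rises. PABPC1 did not pass without siControl replicate 1 (-0.31), siControl replicate 2 (-0.19) or siUPF1 replicate 2 (-0.18), or with the replicate block, alone (-0.25) or with the trend removed (-0.21). TOB1 did not pass without siControl replicate 1 (-0.35) or siControl replicate 2 (-0.30). After overexpression 0 of the 28 passed.

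Of 15 targets of MLXIPL and MLXIP, 2 rose and 2 fell after depletion, beside 16% and 5.51% of all genes. The median log2 fold change was 0.066, against 0.0565 over all genes. The lipid gene TM6SF2 was at 2.63 and 2.72 against 3.70 and 3.36 FPKM (log2 fold change 0.30, adjusted p = 0.158, limma). ACACB, an acetyl-CoA carboxylase, was at 1.55 and 1.46 against 1.87 and 2.15 FPKM (log2 fold change 0.27, adjusted p = 0.202, limma). ME1, which supplies NADPH for lipid synthesis, was at 28.0 and 30.5 against 24.4 and 20.4 FPKM (log2 fold change -0.37, adjusted p = 0.149, limma). ACLY, which makes cytosolic acetyl-CoA, was at 112 and 113 against 99.2 and 92.1 FPKM (log2 fold change -0.24, adjusted p = 0.210, limma).

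On the deposited FPKM the MLXIPL targets thus moved both ways. With the GC and length trend removed TM6SF2 (0.18) and ACACB (0.14) did not pass, while ME1 (-0.23) and ACLY (-0.29) did. FASN, which had not passed before (0.016), passed as a fall under that setting (-0.25). Every gene of this list that passed with the trend removed was lower. Without siUPF1 replicate 2 ME1 was at -0.25 and passed, and ACLY (-0.18) and ACACB (0.20) did not. TXNIP, the best known target of this branch, was at 3.66 and 3.99 against 4.70 and 3.70 FPKM, which overlapped. PKLR stayed below the minimum for testing, with group means from 0.0898 to 0.234 FPKM. After overexpression 0 of the 15 passed, with a median log2 fold change of -0.063.

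Genes whose pattern was most like that of a member were named over the 8 libraries after the mean of each experiment was subtracted, among 7752 genes with a mean of at least 5 FPKM. For MYC these were PPIH (Pearson r 0.983), ACSL1 (0.981), TNFRSF21 (0.978), SLBP (0.976) and BTG1 (0.975). Among the network genes MAX ranked 80 (0.912) and MLX 230 (0.855), while MXD4 was at -0.759 and MGA at -0.894. For MLXIPL the nearest were CABIN1 and TFE3 (0.995 each), RAB11B (0.993), SREBF2 (0.992) and TCF3 (0.990), and MXD4 was at 0.733. These points share libraries and base composition trends, and the values are descriptions. MXI1 and MNT were under the minimum of this comparison.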

How the data were processed

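RNA-seq libraries of Huh7 cells (4 groups of 2) were made from total RNA with a stranded mRNA kit and read from paired ends. The authors trimmed the reads, aligned them to hg19 with HISAT2 2.1.0 and assembled transcripts with StringTie 1.3.4d on NCBI annotation. The submitters' processing notes also name Trimmomatic 0.38, FastQC 0.11.7, CASAVA and mm10. FPKM values per gene were deposited by the authors, and how the 17076 genes were chosen is not given in the sources used here. No value was at 0. No step worth a whole read could be found among low values, so depth is unknown and no count model was run.

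Differences were tested with limma 3.58.1 in R 4.3.3 (lmFit, eBayes with trend) on log2(FPKM + 1), within each experiment for genes with a mean of at least 0.5 FPKM, and over all 8 libraries for the difference of the effects. Both the unadjusted p of 0.05 that the study states and Benjamini-Hochberg adjustment over all genes were used. Transcript GC content and length came from GENCODE release 44 on GRCh37 for 15741 genes, and each library's trend was removed by loess (span 0.5). Each list was described by counts and its median. Named were the 8 members, up to 3 rises and 3 falls per list past the unadjusted threshold whose groups did not overlap, a fixed set of network and target genes, and the 5 genes most like MYC and MLXIPL. DDX21, NPM1 and MYCN were added after their values were seen, as were list genes given only with the GC and length trend removed. The members and lists were chosen with earlier results of these data known. ARRDC4 was not analysed here, and the values of 1 gene that the rule names are not reported here. The fits were tested on simulated data. Other settings were a pseudocount of 0.1, no minimum or one of 5 FPKM, quantile normalization, median centring, a joint fit, eBayes without trend, the replicate number as a block, and each library left out. Python 3.11.15, pandas 2.3.3 and matplotlib 3.10.9 were used.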

Additional observations from a re-analysis of the deposited data

Results flagged for a closer look

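The effect of depletion differed from that of overexpression in an interaction test over the 8 libraries (limma, unadjusted p under 0.05) for 10 named genes and for UPF1, the gene that was changed on purpose. Among the members these were MYC, with a difference of -0.44 (standard error 0.165), and MXD4, with 0.35 (standard error 0.134). Higher after depletion relative to overexpression were also TRRAP (0.39), NDRG2 (0.37) and TM6SF2 (0.36). Lower were TOB1 (-0.38), TFRC (-0.40), HSPE1 (-0.34) and ME1 (-0.39), as was NPM1 (-0.27), which was named only after its values were seen. With the GC and length trend removed MYC (-0.44), TFRC (-0.27) and TOB1 (-0.22) passed. MXD4 (0.071), TRRAP (0.21), NDRG2 (0.24), TM6SF2 (0.21), HSPE1 (-0.096), ME1 (-0.21) and NPM1 (-0.080) did not. UPF1 differed by -6.75 (adjusted p = 2.89e-08). The adjusted limma p of the other 10 lay between 0.212 and 0.323, and 15.2% of all genes in this fit passed the unadjusted threshold. Apart from UPF1 and the members MYC and MXD4, the flagged genes were named because they passed after depletion or, for NPM1, after its values were seen. The test contains the depletion difference, also for MYC (-0.40) and MXD4 (0.33). The passing of the 10 genes here is therefore no separate result, and their number cannot be judged against the share of all genes.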

How the results depend on the processing

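After depletion the fall of MYC passed the unadjusted limma threshold under 14 of 15 other settings, the rise of MXD4 under 11 of 15 and that of MNT under 5 of 14. With 2 libraries per group and unknown depth, changes of this size did not pass adjustment: the 3 members called became 0 after adjustment, 2 with the replicate block and 0 to 6 with a library left out. Same-numbered libraries did not deviate together (correlation of deviations -0.129 for depletion and -0.569 for overexpression). The deviations were taken without removing the GC and length trend. They cannot settle whether the numbers pair the samples, which the labels do not state. With the replicate block MYC and MXD4 passed and MNT did not. Under a crossed pairing, chosen after seeing the data, 4 members passed after depletion. Of all genes, 2908 passed after depletion, 1862 at a minimum of 5 FPKM, 5 after adjustment and 1435 to 5896 with a library left out. After overexpression 189 passed, 409 with no minimum, 49 at 5 FPKM, 359 with the GC and length trend removed, 1227 with the crossed pairing, 1 after adjustment and 220 to 778 with a library left out, while the members stayed at 0 throughout. For the difference of the effects the 2 members called were 1 with median centring, with the replicate block, with the GC and length trend removed or with both, 0 after adjustment and 0 to 3 with a library left out. Of all genes 2041 passed there, 1282 at 5 FPKM, 3 after adjustment and 1065 to 3372 with a library left out. The causes were not tested.

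Of the 10 list medians relative to all genes, 3 moved under some setting by more than the SD between replicates. For turnover and mRNA regulators after depletion (-0.053) the value was -0.066 with a pseudocount of 0.1, -0.039 with no minimum, -0.034 at 5 FPKM, -0.033 with quantile normalization, -0.027 with the GC and length trend removed with or without the replicate block, and -0.082 to -0.029 with a library left out. For MYC-repressed genes after depletion (-0.10) it was -0.032 with quantile normalization and -0.13 to -0.018 with a library left out. For MLXIPL targets after overexpression (-0.049) it was -0.07 to -0.01 with a library left out. The other 7 moved by less than their SD, which reached 0.15, but 5 of them took both signs with a library left out: cofactors (-0.00052 to 0.039) and MLXIPL targets (-0.051 to 0.0021) after depletion, and, after overexpression, cofactors (-0.076 to 0.004), MYC-activated (-0.072 to 0.0091) and MYC-repressed genes (-0.067 to 0.066). The trend removal turned cofactors (-0.034) and MLXIPL targets (-0.03) after depletion and MYC-repressed genes after overexpression (0.0099), and a pseudocount of 0.1 turned MLXIPL targets after depletion (-0.0028). For MYC-activated genes after depletion (-0.09) it was -0.16 to -0.023.

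Signs that turned belonged to changes that had not passed the threshold. With the GC and length trend removed these were MLXIPL (-0.016), CAD (-0.10) and MLXIP (-0.012) after depletion, and MXI1 (-0.029), MXD4 (0.051), MGA (0.0037), MLX (-0.0025), MXD1 (-0.0031) and NCL (-0.013) after overexpression, with the same values under the replicate block. Quantile normalization turned MGA after overexpression (0.0024) and CAD after depletion (-0.0082), and median centring turned MGA after overexpression (0.0032) and NCL after depletion (-0.026). With each library left out in turn the members ranged after overexpression from -0.065 to 0.15 for MYC, -0.00073 to 0.13 for MAX, -0.028 to 0.031 for MXI1, -0.09 to 0.05 for MXD4, -0.28 to 0.057 for MNT, -0.14 to 0.13 for MGA, -0.068 to 0.081 for MLX and -0.24 to 0.038 for MLXIPL. Of the other named genes that turned, the ranges after depletion were -0.063 to 0.16 for CAD, -0.14 to 0.17 for NCL, -0.13 to 0.083 for CDKN1A, -0.061 to 0.04 for MYCN and -0.036 to 0.24 for TXNIP. After overexpression they were -0.084 to 0.12 for MXD1, -0.11 to 0.11 for NCL, -0.16 to 0.30 for CDKN1A, -0.075 to 0.097 for MYCN, -0.33 to 0.15 for MLXIP, -0.15 to 0.12 for PVT1 and -0.29 to 0.057 for CAD.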

Other observations

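CCAT1, an RNA from the region upstream of MYC, was at 3.61 and 3.76 FPKM in siControl, 4.54 and 3.67 in siUPF1, 2.81 and 2.98 with the MYC vector and 2.67 and 3.25 with MYC-UPF1, and its groups overlapped in both experiments. MINCR, an RNA named for its induction by MYC, was at 2.42 and 1.95 FPKM in siControl and 2.60 and 2.26 in siUPF1, which overlapped. Both were described after their values were seen.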
